A study of Mus musculus with 46 samples.

Results

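Microglia sorted from the whole brain of Dicer-deficient mice at steady state were compared with those of control mice. The comparison was defined by its sample labels: 3 Dicer-deficient libraries, numbered 5, 11b and 12, and 3 control libraries, numbered 7, 8 and 9, together 6 of the 46 bulk RNA libraries of the series. The series asked what loss of Dicer does to microglia at rest, after an inflammatory challenge and during development. Dicer-deficient mice were Cx3cr1CreER:Dicerfl/- and controls were Cx3cr1CreER:Dicer+/-. Both groups therefore carried the CreER transgene and 1 Dicer allele written as "-", and they differed in whether the other allele was floxed or wild type. CreER is a Cre recombinase that becomes active when tamoxifen is given, here in cells that use the Cx3cr1 promoter, and when or whether tamoxifen was given is not stated in the labels used here. All mice were 10 to 12 weeks old. Microglia were sorted as CD45int CD11b+ F4/80+ Ly6C- Ly6G- cells, and the RNA was captured on oligo(dT) beads. The labels call these mice both steady state and PBS, so whether they were injected is unclear, and no lipopolysaccharide (LPS) was given.

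Dicer is the endonuclease that cuts hairpin precursors into mature microRNAs of about the length printed below. A mature microRNA guides Argonaute proteins to messenger RNAs that pair with its seed, the bases near its 5′ end, and the bound messengers are translated less and decay faster. Microglia are the resident macrophages of the brain. They arise early in the embryo and renew slowly, clear debris and synapses, and respond to injury and infection.

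Levels are the deposited normalized counts, read counts per gene that the authors divided by 1 factor per library. A fold change is the difference of the group means on the log2(value + 1) scale, Dicer-deficient minus control, given with its standard error (SE). That scale understates the change of genes with few reads. A gene was called when its Benjamini-Hochberg adjusted p from limma was under 0.05, and rose or fell is used of called genes only. Whether each library came from its own mouse is not stated, so a p-value reflects how much the libraries of a group vary, which may be technical.

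The 6 libraries held 2244169 to 3615986 reads. The sorted cells had high levels of microglial genes in every library. Csf1r, the receptor for the survival factor of macrophages, had 33786, 32271 and 33793 normalized counts in Dicer-deficient libraries 5, 11b and 12, against 26689, 28990 and 28228 in control libraries 7, 8 and 9. The purinergic receptor gene P2ry12 was between 6438 and 7937 in Dicer-deficient libraries and between 9103 and 11450 in controls, and the groups did not overlap, with a fold change of -0.43 ± 0.47 (adjusted p = 0.712). Of 12 microglial markers 0 were called by limma, and 2 had an unadjusted p under 0.05. EdgeR and DESeq2 also called 0. In 6 of the 12 the groups did not overlap with the Dicer-deficient one lower, against 13.7% of all genes tested. In 2 they did not overlap with it higher, against 9.15%. The median fold change of the list was -0.27, against -0.10 for all genes. In bulk RNA fewer cells of a type and less RNA per cell cannot be told apart.

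Dicer-deficient library 11b stood apart from the other 5. Its Xist level was 580.4 and the summed level of its Y-linked genes 9.1, whereas the other Dicer-deficient libraries had Xist at 0 and 3.8 and Y-linked sums of 558.3 and 598.7, and controls had Xist at 0 to 1.7 and Y-linked sums of 428.4 to 475.2. It also held neutrophil transcripts, with Ngp at 131.4, S100a9 at 108.9, Camp at 80.1 and Ltf at 21.1, each at most 3.9 in the other 5 libraries. Not every gene of the monocyte and neutrophil list was high in 11b. Cxcr2 was at 0.7 there, against 0 and 4.8 in Dicer-deficient 5 and 12 and 4.6 to 5.0 in controls. Mmp8 and Mmp9 were at 0 in all 6 libraries. The summed list was 1256 in 11b, against 1359 and 1172 in Dicer-deficient 5 and 12. Of its 18 genes 13 were above 0 in 11b, against 4 to 10 in the other 5 libraries. The Cx3cr1 level of 11b was 2487, against 5575 and 5330 in Dicer-deficient libraries 5 and 12 and 6773 to 7076 in controls. Haemoglobin transcripts differed among the controls, with Hba-a1 at 113.5, 307.8 and 573.2, against 87.7, 22.5 and 103.7 in Dicer-deficient libraries. The part these transcripts play in the results was not tested, and each named call was examined with 11b left out.

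**Figure D1:**
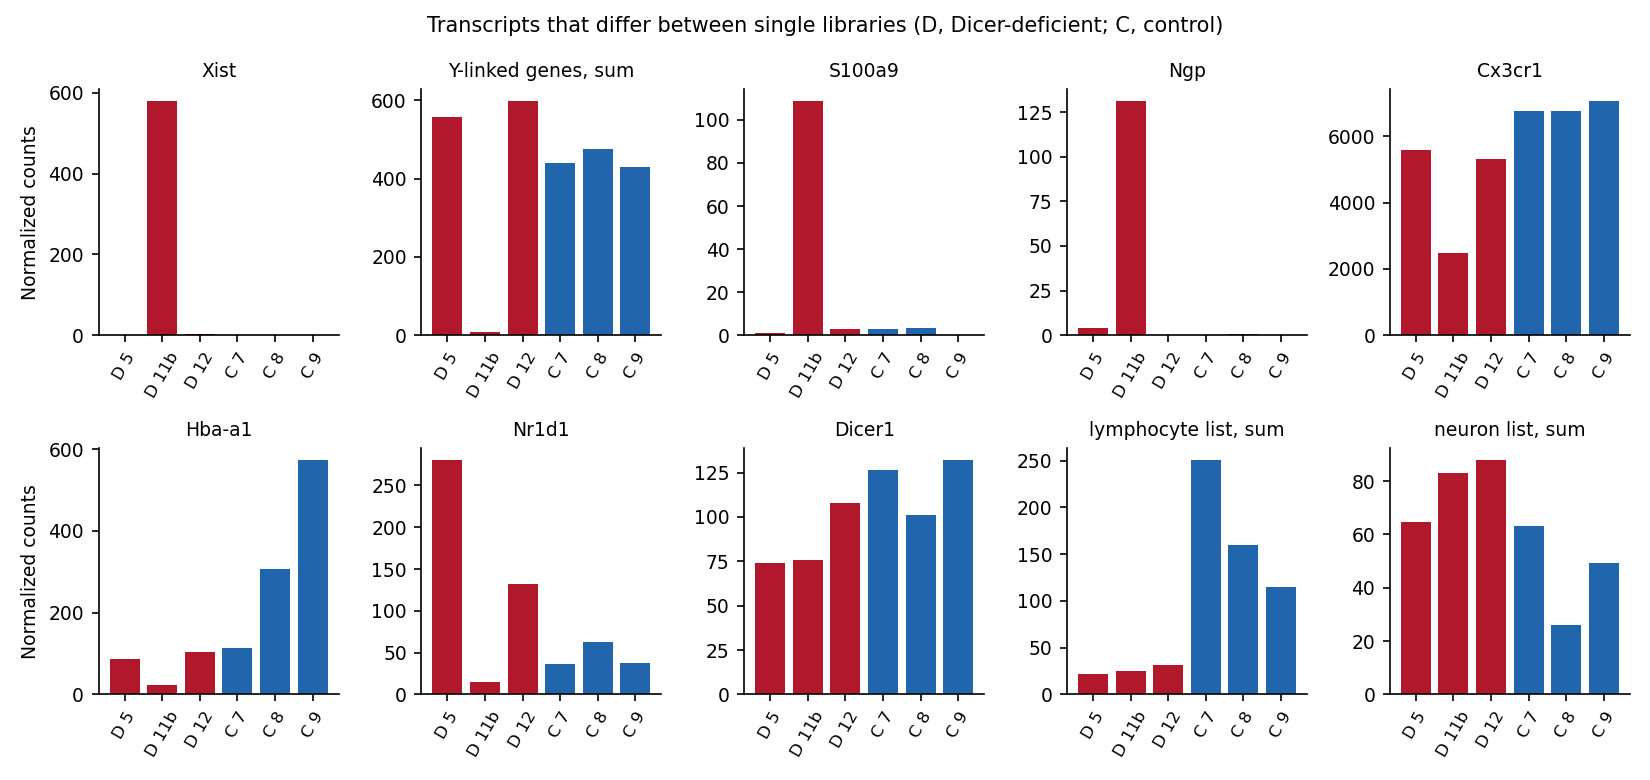
Normalized counts of single transcripts, or the summed counts of a marker list, in Dicer-deficient libraries 5, 11b and 12 (D, red) and control libraries 7, 8 and 9 (C, blue). Xist, S100a9 and Ngp were high in 11b and at most 3.9 in the other 5 libraries, and the summed lymphocyte list, carried by Cd79b, was 22.2 to 31.4 in Dicer-deficient libraries and 114.9 to 250.6 in controls.

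Dicer1 itself had 74.2, 75.9 and 107.6 normalized counts in Dicer-deficient libraries, against 126.7, 100.9 and 132.1 in controls. The groups overlapped, and the fold change of -0.49 ± 0.28 was not called (adjusted p = 0.427). A floxed exon can be removed while the 3′ end of the transcript is still captured, so this level need not measure the deletion.

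Across 13423 genes tested, 292 were called (2.18%). There were 107 increases (0.797% of genes tested) and 185 decreases (1.38%). A change of at least 2-fold was reached by 87 and 169 of them, and one of at least 4-fold by 34 and 88. The median level over the 6 libraries was 200.1 for genes that rose, 51.9 for genes that fell and 50.25 for all genes tested. In all 292 called genes the 2 groups did not overlap, as in 22.8% of all genes tested. With edgeR on the recovered reads and TMM scaling 118 rose and 109 fell, so the excess of lower genes was not seen there. The median fold change of all genes was -0.10 with limma and 0 with that scaling. When each library was left out in turn 77 calls were kept in all 6 refits, 37 higher and 40 lower. A call named below without such a remark was kept in all 6, and for the others the libraries that ended it are given with the highest adjusted p of the refits, in which the shortened group is assumed to vary like the rest. A fit of the 6 libraries alone, with fewer degrees of freedom, called 187 genes, 104 of them among the 292. Of the named genes whose calls were kept in all 6 refits it left uncalled Dnaic1, Siglecf, Kcnn4, Prim2, Anxa5, Lag3, Oaf, Egr1, Csf2ra, Gpr183, Adamts1, Fbxo48, Galnt2, B4galt6, Cd34, Gata2 and Cd83, with adjusted p from 0.05 for Lag3 to 0.124 for Adamts1.

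**Figure D2:**
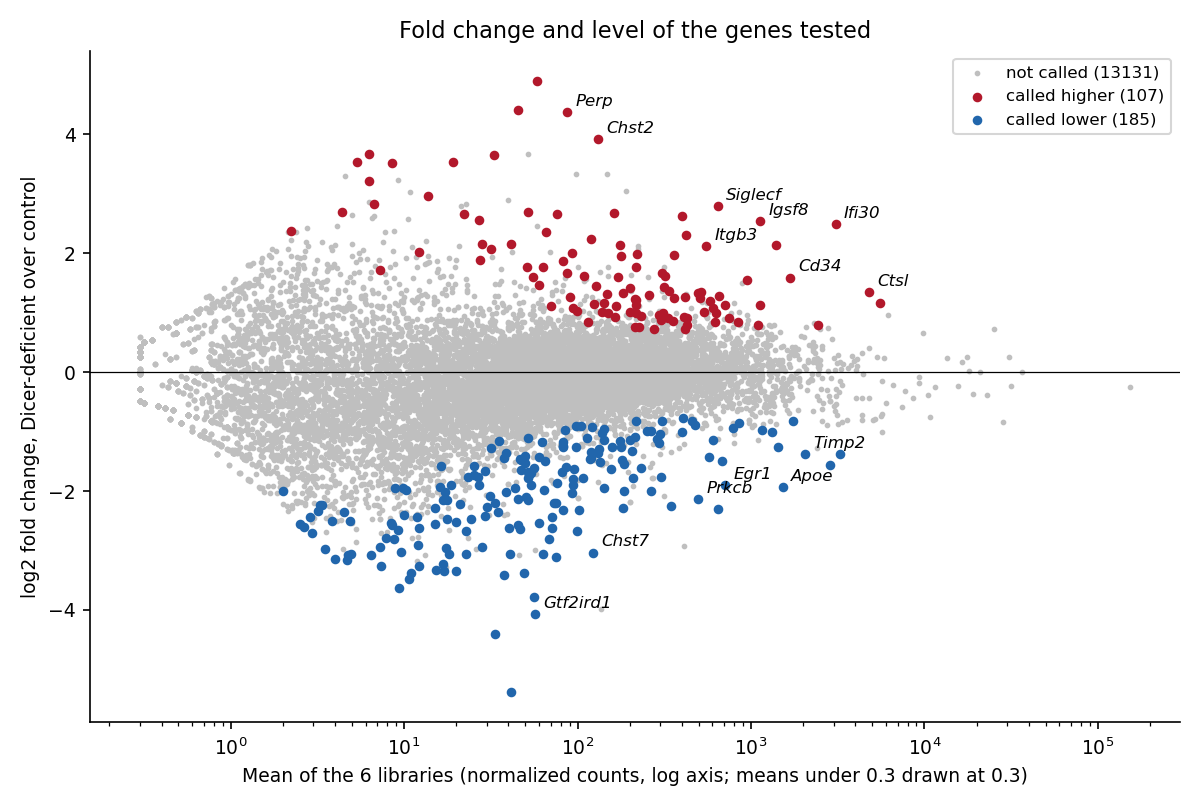
Each point is a gene, placed by its mean over the 6 libraries (log axis) and by its log2 fold change, Dicer-deficient over control. The 107 genes that rose (red) lie mostly at levels above 50.25, the median of all genes, and the 185 that fell (blue) are split about evenly around it.

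The highest increases included Perp, a membrane protein of desmosomes and a p53 target. It had 149.4, 269.8 and 85.7 normalized counts in Dicer-deficient libraries, against 5.7, 4.2 and 10.3 in controls, a fold change of 4.38 ± 0.53 (adjusted p = 0.000311). Every Dicer-deficient library was at least 8 times any control. Among 33 tested p53 targets Perp alone was called, where 2.18% of all genes tested were called, and the list median was -0.11. Dnaic1, a dynein intermediate chain of cilia, had 72.3, 247.3 and 23.8 against 1.9, 0.8 and 2.3 (4.89 ± 0.77, adjusted p = 0.00249), the widest spread of the set within the Dicer-deficient group. The control values of Dnaic1 are worth 1 or 2 reads each.

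Several genes of surface receptors were among those that rose. Igsf8, an immunoglobulin protein that binds tetraspanins, had 1771, 2591 and 1472 normalized counts in Dicer-deficient libraries, against 348.9, 286.8 and 338.9 in controls (2.54 ± 0.28, adjusted p = 0.000198). Itgb3, the beta 3 integrin chain of the vitronectin receptor, had 951.6, 869.2 and 869.0 against 274.2, 184.2 and 173.4 (2.11 ± 0.24, adjusted p = 0.000199). Siglecf, an inhibitory sialic acid receptor best known on eosinophils and alveolar macrophages, had 854.2, 1951 and 614.9 against 131.4, 131.2 and 173.4 (2.80 ± 0.44, adjusted p = 0.00249). In all 3 genes the lowest Dicer-deficient library was at least 3 times the highest control. Csf2ra, the receptor chain for GM-CSF, had 856.1, 635.2 and 696.7 against 432.1, 226.2 and 234.3 (1.35 ± 0.23, adjusted p = 0.00369). Of 39 cytokine receptors 1 other was called, Tnfrsf11a, the receptor RANK (-1.27 ± 0.32, adjusted p = 0.0491), a call kept only without Dicer-deficient 12 (highest adjusted p 0.201). Over all genes tested 0.797% rose and 1.38% fell. Cd34, a sialomucin named here after its values were seen, was at 2294, 3702 and 1697 against 846.2, 691.3 and 897.1 (1.59 ± 0.26, adjusted p = 0.00283).

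Other receptor increases lost their call in most refits that left out 1 library. Upk1b, a tetraspanin of the homeostatic microglial list, had 2099, 3110 and 1645 normalized counts in Dicer-deficient libraries, against 514.4, 492.8 and 485.9 in controls (2.15 ± 0.45, adjusted p = 0.0179), yet its call was kept only without Dicer-deficient 12 (highest adjusted p 0.0839). Fcrl1, an Fc receptor-like protein, rose by 1.99 ± 0.46 (adjusted p = 0.0306), and the call was kept only without control 7 (highest 0.147). C5ar2, a decoy receptor for complement C5a, rose by 1.26 ± 0.30 (adjusted p = 0.0407) and Procr, the endothelial protein C receptor, by 2.67 ± 0.62 (adjusted p = 0.0324). The C5ar2 call was kept only without Dicer-deficient 5 (highest 0.191) and the Procr call only without control 8 (highest 0.139), in which Procr was at 158.1, against 11.3 and 27.6 in the other controls. Scarb1, the scavenger receptor for high-density lipoprotein, was at 307.5, 268.4 and 295.1 against 142.8, 119.4 and 176.9 (1.00 ± 0.23, adjusted p = 0.0324), and each of the 6 refits lost the call (highest 0.147).

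Of 51 lysosomal genes 3 rose and none fell, and of 38 antigen presentation genes 2 rose and 1 fell. Over all genes tested 0.797% rose and 1.38% fell. DESeq2 called 4 lysosomal genes higher and 2 lower. Ifi30 encodes GILT, the thiol reductase that unfolds proteins in the lysosome for presentation. It had 3866, 7852 and 4085 normalized counts in Dicer-deficient libraries, against 865.1, 931.0 and 861.5 in controls (2.49 ± 0.30, adjusted p = 0.000311), and it was the most abundant of the 20 highest genes. Ctsl, the cysteine protease cathepsin L, had 5918, 8861 and 5761 against 2374, 3447 and 2226 (1.35 ± 0.29, adjusted p = 0.0189). Man2b1, the lysosomal alpha-mannosidase, had 6160, 11958 and 5452 against 3246, 3549 and 3070 (1.17 ± 0.29, adjusted p = 0.0458), and Gusb, beta-glucuronidase, 1338, 1474 and 1341 against 766.8, 855.3 and 773.1 (0.79 ± 0.16, adjusted p = 0.0161). Without 11b the Ctsl and Man2b1 calls were lost. Ctsl also lost its call without control 7 or 9 (highest adjusted p 0.114), Gusb without Dicer-deficient 5 or control 7 or 9 (highest 0.0873), and Man2b1 in every refit but that without Dicer-deficient 12 (highest 0.169). Ctsl, Man2b1 and Gusb were the called lysosomal genes, and the median of that list was 0.05. Among antigen presentation genes Ifi30 and Ctsl rose and H2-Ob, a chain of the DO protein that holds back class II loading, fell to 22.2, 41.5 and 17.1 against 105.9, 130.4 and 122.9 (-2.20 ± 0.53, adjusted p = 0.0376), a call kept only without 11b (highest 0.131).

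The promoters of Ifi30 and Ctsl both held the E-box CACGTG, the palindrome that factors such as Tfeb, Usf and Myc bind, and are shown for that reason. Each is 300 bases, from 250 before to 50 after the gene start, from RefSeq on GRCm38.p6 with the motif in capitals, and both lie on the minus strand, Ifi30 at chr8:70766614-70766913 and Ctsl at chr13:64370471-64370770.
Ifi30: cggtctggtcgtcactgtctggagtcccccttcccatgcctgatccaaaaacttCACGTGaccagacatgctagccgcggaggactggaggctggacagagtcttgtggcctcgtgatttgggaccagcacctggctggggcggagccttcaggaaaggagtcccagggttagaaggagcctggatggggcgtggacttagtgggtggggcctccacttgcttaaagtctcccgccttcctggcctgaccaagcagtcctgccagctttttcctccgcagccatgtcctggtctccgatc
Ctsl: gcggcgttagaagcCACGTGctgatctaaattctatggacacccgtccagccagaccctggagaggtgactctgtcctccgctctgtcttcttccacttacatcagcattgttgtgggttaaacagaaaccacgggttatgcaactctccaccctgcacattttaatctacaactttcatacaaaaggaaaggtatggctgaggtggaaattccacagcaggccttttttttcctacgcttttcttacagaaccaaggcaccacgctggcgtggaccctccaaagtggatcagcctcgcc
The motif begins 196 bases before the gene start in Ifi30 and 236 bases before it in Ctsl. It reads the same on both strands. It was found in 7.15% of all promoters in the table, and at least 1 promoter held it in 1179 of 10152 tested genes with a match (11.6%), 13 of 78 genes that rose (16.7%), 18 of 139 that fell (12.9%) and 14 of 41 lysosomal genes (34.1%). A match is a description of the sequence and not a binding site.

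Signalling enzymes and channels moved in both directions within a family. Among 27 genes of protein kinase C and diacylglycerol signalling, Prkcb, the beta isoform, fell to 183.2, 204.5 and 165.6 normalized counts in Dicer-deficient libraries, against 810.3, 725.0 and 896.0 in controls (-2.13 ± 0.19, adjusted p = 1.59e-05). Prkcq, the theta isoform of T cell signalling, had 99.3, 192.5 and 106.6 against 22.7, 13.5 and 23 (2.66 ± 0.66, adjusted p = 0.0435), a call lost in each of the 6 refits (highest adjusted p 0.161). Dgka, the kinase that removes diacylglycerol, had 242.0, 273.3 and 266.5 against 116.3, 103.4 and 89.6 (1.34 ± 0.22, adjusted p = 0.00276). Prkcb was the one gene of this list that was called lower, with Prkcq and Dgka the 2 called higher and a list median of 0.07. Over all genes tested 1.38% fell and 0.797% rose.

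Of 24 cyclic nucleotide phosphodiesterases and adenylyl cyclases 2 rose, where 0.797% of all genes tested rose. Pde2a, which hydrolyses cAMP when cGMP is high, had 578.5, 761.7 and 707.2 normalized counts in Dicer-deficient libraries, against 71.9, 143.0 and 126.4 in controls (2.62 ± 0.41, adjusted p = 0.00249). Pde4b, the main cAMP phosphodiesterase of macrophages, rose by 0.87 ± 0.22 (adjusted p = 0.0458), a call kept only without control 7 (highest 0.214). Adcy8, an adenylyl cyclase outside that list chosen after its values were seen, fell to 1.0, 0.7 and 0 against 6.6, 5.0 and 6.9. Its fold change was -2.24 ± 0.51 (adjusted p = 0.0293), a call lost in each of the 6 refits (highest 0.106). Among 35 ion channels Kcnn4, the calcium-activated potassium channel KCa3.1, had 126.3, 158.8 and 51.4 against 24.6, 11.8 and 23 (2.36 ± 0.37, adjusted p = 0.00249). Itpr3, a calcium release channel, rose by 1.42 ± 0.34 and Cacna1a, a voltage-gated calcium channel, by 1.62 ± 0.39 (adjusted p = 0.0407 and 0.0376), and both calls were kept only without Dicer-deficient 12 (highest 0.191 and 0.163). Kcnma1, the large-conductance potassium channel, fell to 4.8, 0.7 and 10.5 against 31.2, 45.4 and 43.6 (-3.07 ± 0.64, adjusted p = 0.0178), a call lost without 11b or control 8 or 9 (highest 0.0859).

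A pair of carbohydrate sulfotransferases moved in opposite directions. Chst2 adds sulfate to N-acetylglucosamine, a step in making ligands of selectins. It had 310.4, 246.6 and 180.8 normalized counts in Dicer-deficient libraries, against 7.6, 17.7 and 24.1 in controls (3.92 ± 0.35, adjusted p = 1.59e-05). Chst7, which sulfates chondroitin and N-acetylglucosamine, had 26.0, 30.9 and 20.9 against 261.0, 196.0 and 199.9 (-3.03 ± 0.30, adjusted p = 4.76e-05). The lowest Dicer-deficient Chst2 value was over 7 times the highest control, and every Dicer-deficient Chst7 value was far below every control. No other gene of the 30 on the list was called, where 2.18% of all genes tested were called.

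Genes of other glycan steps, chosen after their values were seen, were called as well. Chsy1, which polymerises chondroitin, fell to 69.4, 64.6 and 41.9 normalized counts in Dicer-deficient libraries, against 219.4, 227.9 and 228.6 in controls (-1.96 ± 0.26, adjusted p = 0.000579). B4galt6, a lactosylceramide synthase, fell by 1.61 ± 0.29 (adjusted p = 0.00579). Galnt2, which starts mucin-type O-glycans, rose by 1.19 ± 0.22 (adjusted p = 0.00687). Colgalt1 and Plod3, which add galactose and hydroxyl groups to collagen lysines, rose by 1.28 ± 0.16 (adjusted p = 0.000356) and 1.13 ± 0.20 (adjusted p = 0.00578).

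Further genes among the 20 highest had unrelated roles. Nid2, a nidogen of basement membranes, had 674.9, 754.0 and 684.4 normalized counts in Dicer-deficient libraries, against 131.4, 130.4 and 166.6 in controls (2.30 ± 0.38, adjusted p = 0.00357), and was the one gene of the 33-member matrix list that rose. Hist1h2bc, a histone H2B gene, had 499.4, 564.9 and 668.2 against 136.2, 138.8 and 163.1 (1.97 ± 0.27, adjusted p = 0.00074), although near-identical copies can share its reads. Of 33 histone genes it alone was called, where 2.18% of all genes tested were called. Prim2, the large primase subunit, rose by 2.25 ± 0.37, the guanine exchange factor Dock9 by 2.14 ± 0.39, the splicing regulator Celf4 by 2.01 ± 0.35 and the actin-binding coronin Coro2a by 1.95 ± 0.27 (adjusted p from 0.000791 to 0.00685). Myl2, a myosin light chain, rose by 1.86 ± 0.41 (adjusted p = 0.0246), a call lost without 11b, Dicer-deficient 12 or control 7 or 9 (highest adjusted p 0.107).

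**Figure D3:**
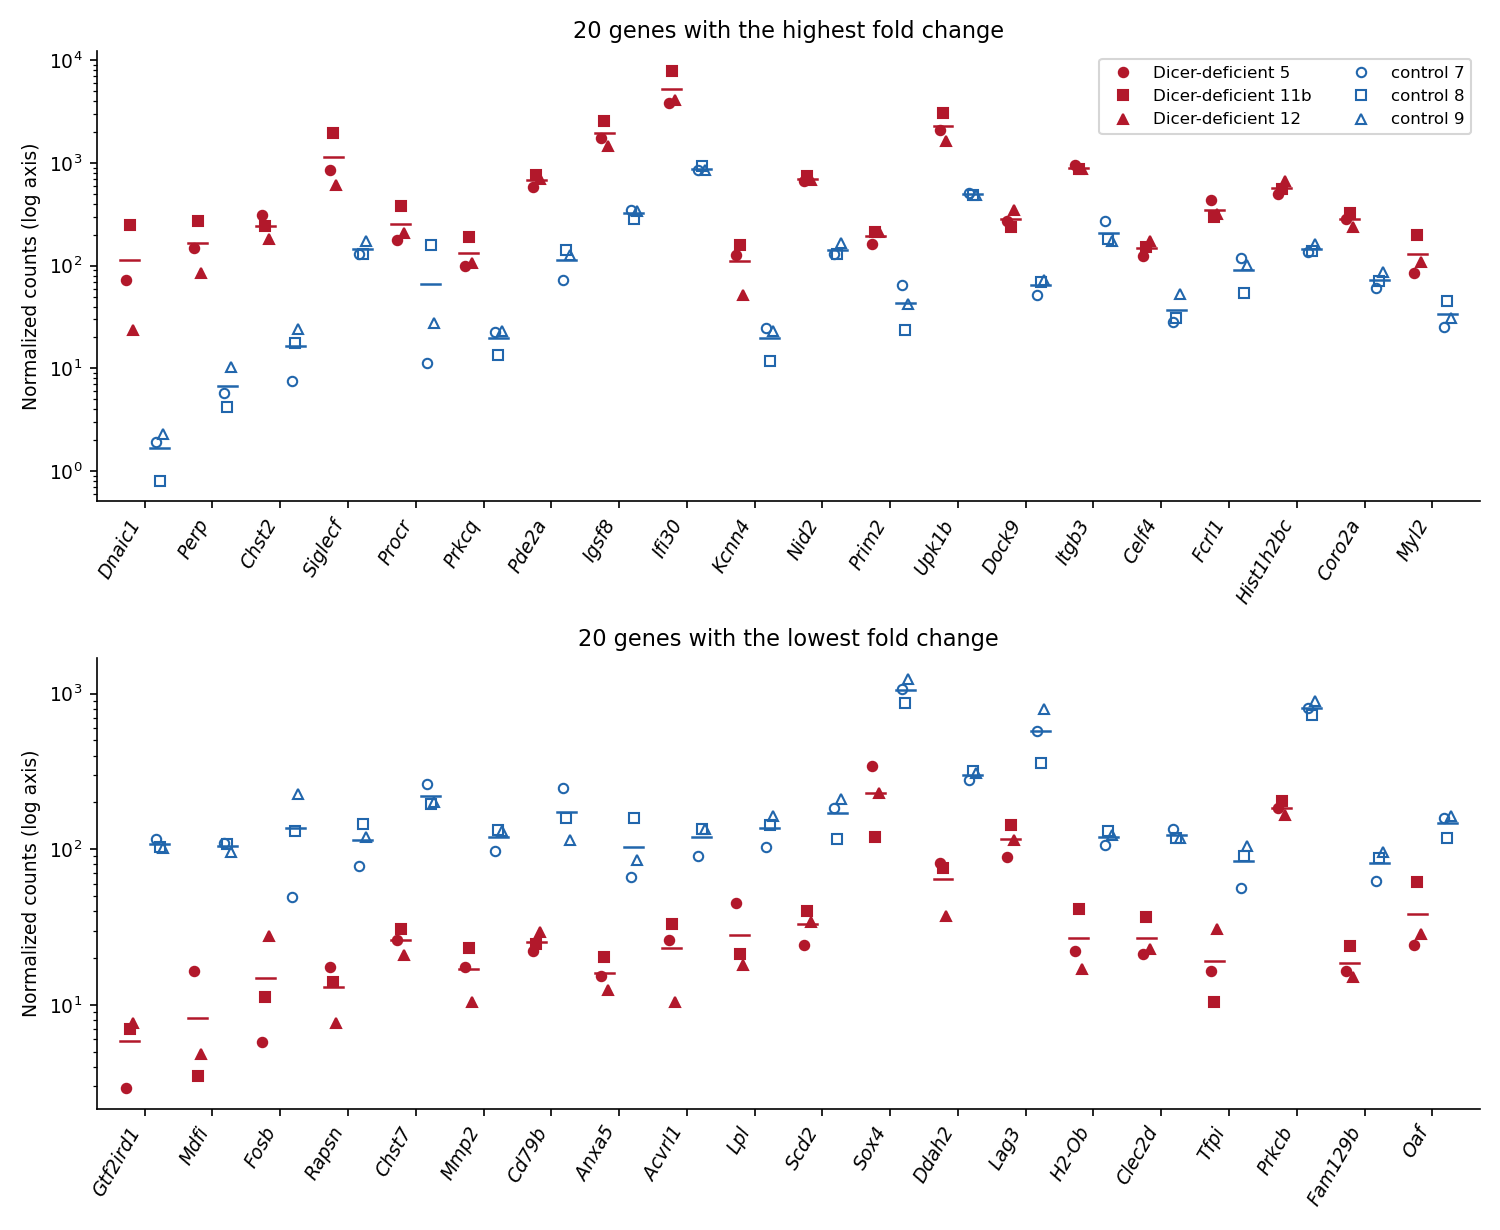
Normalized counts (log axis) in Dicer-deficient libraries 5, 11b and 12 (red, filled) and control libraries 7, 8 and 9 (blue, open), with the group mean as a bar, for the called genes of at least median level with the 20 largest increases and the 20 largest decreases. The groups do not overlap in any of the 40, which the choice of genes required, and within the Dicer-deficient group 11b is the highest library for Perp, Siglecf, Igsf8, Ifi30 and Upk1b, among others.

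Of 36 genes of lipoproteins and cholesterol 4 fell and none rose, where 1.38% of all genes tested fell and 0.797% rose. Apoe, the apolipoprotein that glia secrete to carry cholesterol, had 692.2, 536.1 and 641.5 normalized counts in Dicer-deficient libraries, against 3211, 2240 and 1844 in controls (-1.93 ± 0.25, adjusted p = 0.000579). Scd2, a stearoyl-CoA desaturase, had 24.1, 40.1 and 34.3 against 184.4, 116.9 and 209.1 (-2.33 ± 0.42, adjusted p = 0.00579). Lpl, lipoprotein lipase, had 45.3, 21.1 and 18.1 against 104.0, 142.1 and 163.1 (-2.33 ± 0.44, adjusted p = 0.00833), a call lost without control 9 (adjusted p = 0.0635). Stard8, a protein with a lipid transfer domain, fell by 1.67 ± 0.36 (adjusted p = 0.0209), a call lost without Dicer-deficient 12 or any 1 control (highest 0.0983). The list median was -0.17 against -0.10 for all genes, and 14 of the 36 fold changes were above 0.

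Apoe and Lpl also stand in the disease-associated list, with Ctsl, Ccl6 and Timp2 as its other called members (1 higher and 4 lower of 33), and in the perinatal list, with Anxa5 and Tmsb10 (4 lower of 25, none higher). Timp2, an inhibitor of metalloproteinases, had 1015, 1245 and 1133 normalized counts in Dicer-deficient libraries, against 2790, 3488 and 2575 in controls (-1.38 ± 0.25, adjusted p = 0.00648). Anxa5, which binds phosphatidylserine, had 15.4, 20.4 and 12.4 against 66.2, 159.0 and 85.0 (-2.54 ± 0.41, adjusted p = 0.00276). Tmsb10, a thymosin that binds actin monomers, fell by 2.01 ± 0.51 (adjusted p = 0.0469), a call kept only without Dicer-deficient 12 (highest 0.181). The list medians were -0.27 and -0.51, and of all genes tested 1.38% fell and 0.797% rose.

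Of 33 genes of the matrix and its proteases 7 fell, against 1.38% of all genes tested, while the list median was 0.01. Adamts1, a protease that cleaves the proteoglycans versican and aggrecan, was at 0, 0.7 and 4.8 normalized counts in Dicer-deficient libraries, against 12.3, 51.3 and 132.1 in controls (-4.40 ± 0.74, adjusted p = 0.00358). Mmp14, the membrane-bound metalloproteinase that activates Mmp2, had 42.4, 42.9 and 30.5 against 167.4, 106.0 and 173.4 (-1.90 ± 0.29, adjusted p = 0.00232). Mmp2, gelatinase A, had 17.4, 23.2 and 10.5 against 97.4, 132.0 and 130.9 (-2.80 ± 0.67, adjusted p = 0.0375), a call lost in each of the 6 refits (highest adjusted p 0.136). Mmp14, Mmp2 and their inhibitor Timp2 were all lower in each Dicer-deficient library than in any control, a lack of overlap that all 292 called genes share. Oaf, a secreted protein (-2.03 ± 0.29, adjusted p = 0.00129), and Ecscr, a surface protein known from endothelial cells (-1.43 ± 0.23, adjusted p = 0.00249), fell too. Serpine2, a protease inhibitor, fell by 0.97 ± 0.22 (adjusted p = 0.0253), a call lost without Dicer-deficient 5 or 12 or control 7 or 9 (highest 0.119). Refits without 1 library called 5 to 6 of the list lower, and edgeR called 7.

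Immediate early genes, which stimulated or freshly dissociated cells switch on within minutes, gave 6 decreases and no increase among 34. Over all genes tested 1.38% fell and 0.797% rose. Egr1, a zinc finger factor of this class, had 241.0, 251.6 and 370.3 normalized counts in Dicer-deficient libraries, against 615.5, 1178 and 1615 in controls (-1.90 ± 0.31, adjusted p = 0.00283). Jun, an AP-1 subunit, had 1094, 1060 and 2259 against 2829, 4201 and 5754 (-1.57 ± 0.35, adjusted p = 0.026), and Fosb, its partner, 5.8, 11.2 and 27.6 against 49.2, 131.2 and 227.4 (-3.11 ± 0.72, adjusted p = 0.0324). Within controls all 3 were lowest in library 7 and highest in library 9, and within Dicer-deficient libraries all 3 were highest in 12. Junb, another AP-1 subunit, fell by 1.26 ± 0.29 (adjusted p = 0.0324) and Nfkbiz, a nuclear IkB protein, by 1.95 ± 0.40 (adjusted p = 0.0136). The calls of Jun, Fosb and Junb were lost without Dicer-deficient 5 or 11b or control 8 or 9 (highest 0.148, 0.167 and 0.174), and that of Nfkbiz without Dicer-deficient 5 or control 9 (highest 0.0896). Fos itself had 216.0, 602.9 and 693.9 against 668.5, 1114 and 1469, overlapping groups, and was not called (-1.20 ± 0.37, adjusted p = 0.109). The list median was -0.56, and 15 of its 34 members had groups that did not overlap with the Dicer-deficient one lower, against 13.7% of all genes tested. Without 1 library 1 to 7 members were called lower and the median was between -0.68 and -0.43.

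Of 34 cytokine and chemokine genes 3 fell and none rose, where 1.38% of all genes tested fell and 0.797% rose. Ccl6, a chemokine of resident microglia and other macrophages, had 88.7, 137.7 and 94.2 normalized counts in Dicer-deficient libraries, against 347.9, 457.5 and 464.1 in controls (-1.99 ± 0.24, adjusted p = 0.000311). Tnfsf12, the ligand TWEAK, had 100.3, 95.6 and 87.6 against 301.6, 297.7 and 234.3 (-1.54 ± 0.19, adjusted p = 0.000356). Ccl3, which attracts myeloid cells and also stands in the immediate early list, had 81.0, 198.2 and 124.7 against 234.5, 642.6 and 537.6 (-1.77 ± 0.43, adjusted p = 0.0417), a call lost without Dicer-deficient 5 or 12 or control 8 or 9 (highest adjusted p 0.184). The list median was -0.20, and 14 of the 34 fold changes were above 0.

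Several genes of other immune receptors and surface proteins were among those that fell. Lag3, a checkpoint receptor that microglia express at rest, had 89.7, 144.0 and 115.2 normalized counts in Dicer-deficient libraries, against 576.8, 357.4 and 799.5 in controls (-2.25 ± 0.31, adjusted p = 0.000791). Clec2d, a C-type lectin that binds NK receptors, had 21.2, 36.5 and 22.8 against 135.2, 117.7 and 118.3 (-2.20 ± 0.36, adjusted p = 0.00276). Cd79b, the signalling chain of the B cell receptor, had 22.2, 24.6 and 29.5 against 248.7, 159.8 and 114.9 (-2.67 ± 0.54, adjusted p = 0.0132), a call lost without Dicer-deficient 5 or control 7 or 8 (highest adjusted p 0.0711). Of 15 lymphocyte markers 11 were in the table. Cd3e, Cd3g, Cd3d, Cd8a, Ms4a1, Ncr1, Nkg7 and Gzma were at 0 in all 6 libraries, so Cd79b carried the sum of that list. Cd22, a Siglec of B cells that aged microglia also use, fell by 2.63 ± 0.62 (adjusted p = 0.0345) and Tlr1, a receptor for bacterial lipopeptides, by 1.46 ± 0.34 (adjusted p = 0.0343). Both were called only without 11b (highest 0.143 and 0.128). Gpr183, the receptor for oxysterols that guides immune cells, had 401.1, 249.4 and 433.1 against 972.0, 926.8 and 1080 (-1.49 ± 0.21, adjusted p = 0.0011). Enpp1, an ectonucleotidase, was the other called gene of 23 in the purinergic list, at 6.7, 8.4 and 5.7 against 34.0, 35.3 and 36.8 (-2.21 ± 0.55, adjusted p = 0.0458), lost in each of the 6 refits (highest 0.149). Of the 8 Siglecs tested Siglecf rose and Cd22 fell, where 0.797% of all genes tested rose and 1.38% fell.

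Nuclear factors and regulators of other pathways were among the lowest genes. Gtf2ird1, a TFII-I family factor, had 2.9, 7.0 and 7.6 normalized counts in Dicer-deficient libraries, against 117.2, 103.4 and 102.2 in controls (-4.07 ± 0.65, adjusted p = 0.00249), and Mdfi, an inhibitor of myogenic factors, 16.4, 3.5 and 4.8 against 109.7, 108.5 and 95.3 (-3.78 ± 0.66, adjusted p = 0.00537). Control libraries of both lay within a narrow range. Sox4, a factor of progenitors, had 343.2, 120.2 and 228.4 against 1064, 865.4 and 1247 (-2.30 ± 0.49, adjusted p = 0.0183), a call lost without 11b or control 7 or 9 (highest adjusted p 0.094). Acvrl1, the receptor ALK1 of the TGF-beta family, fell by 2.44 ± 0.47 (adjusted p = 0.00959), lost without control 8 or 9 (highest 0.0635), and was the one call among 29 TGF-beta genes. Ddah2, which degrades a nitric oxide synthase inhibitor, fell by 2.28 ± 0.42 (adjusted p = 0.00648), and Prdx2, a peroxiredoxin, by 1.14 ± 0.22 (adjusted p = 0.00876), lost without control 9 (0.06). Fam129b, a regulator of apoptosis, fell by 2.09 ± 0.33 (adjusted p = 0.00249) and Tfpi, an inhibitor of coagulation, by 2.16 ± 0.46 (adjusted p = 0.0184), lost without Dicer-deficient 5 or 11b or control 8 or 9 (highest 0.106). Rapsn, which clusters acetylcholine receptors, fell by 3.06 ± 0.70 (adjusted p = 0.0302), lost in each of the 6 refits (highest 0.129). Among 31 transcription factors of microglia Egr1, Jun and Elk3 fell, Elk3 by 0.83 ± 0.20 (adjusted p = 0.0376), lost in each of the 6 refits (highest 0.138). Over all genes tested 1.38% fell.

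Metabolic, protein synthesis and division lists held few calls, where 1.38% of all genes tested fell and 0.797% rose. Of 28 glycolysis genes Pdk1, which inhibits pyruvate dehydrogenase, fell by 1.25 ± 0.29 (adjusted p = 0.0318), lost without Dicer-deficient 5 or 11b or control 8 or 9 (highest adjusted p 0.16). Pfkfb4, which tunes glycolytic flux, fell by 1.01 ± 0.26 (adjusted p = 0.0492), lost in each of the 6 refits (highest 0.162). The complex I gene Ndufa5 was the one call of 45 respiratory genes (-1.28 ± 0.30, adjusted p = 0.0324), and the amino acid transporter Slc7a5 that of 29 serine and Atf4 genes (-1.67 ± 0.32, adjusted p = 0.0098). Ndufa5 was called only without Dicer-deficient 12 (highest 0.133), and Slc7a5 lost its call without Dicer-deficient 5 or control 9 (highest 0.0813). Among 31 mitosis genes Espl1, the separase that cuts cohesin, fell by 2.57 ± 0.55 (adjusted p = 0.0199), lost without Dicer-deficient 12 or any 1 control (highest 0.101). Map2k1, the kinase MEK1, was the one call of 27 MAP kinase genes (0.80 ± 0.18, adjusted p = 0.0244), kept only without 11b (highest 0.12).

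The fold changes of 70 of 77 cytosolic ribosomal protein genes lay below 0, with a median of -0.42 against -0.10 for all genes, and -0.33 with edgeR and TMM scaling, where all genes have a median of 0. With limma only Rpl39, Rps24 and Rps26 were called, at -1.63 ± 0.39, -0.90 ± 0.23 and -0.83 ± 0.21 (adjusted p = 0.0359, 0.0475 and 0.0458). EdgeR called none of the list, and DESeq2 called 6 lower and 0 higher. The 3 limma calls did not outlast most refits (highest adjusted p 0.122, 0.191 and 0.184). Rpl39 was called only without Dicer-deficient 5 or 12, and Rps24 and Rps26 only without 11b. Ribosomal protein genes have many processed pseudogenes, which can share their reads. In 28 of the 77 the groups did not overlap with the Dicer-deficient one lower, against 13.7% of all genes tested, and in 0 with it higher, against 9.15%.

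**Figure D4:**
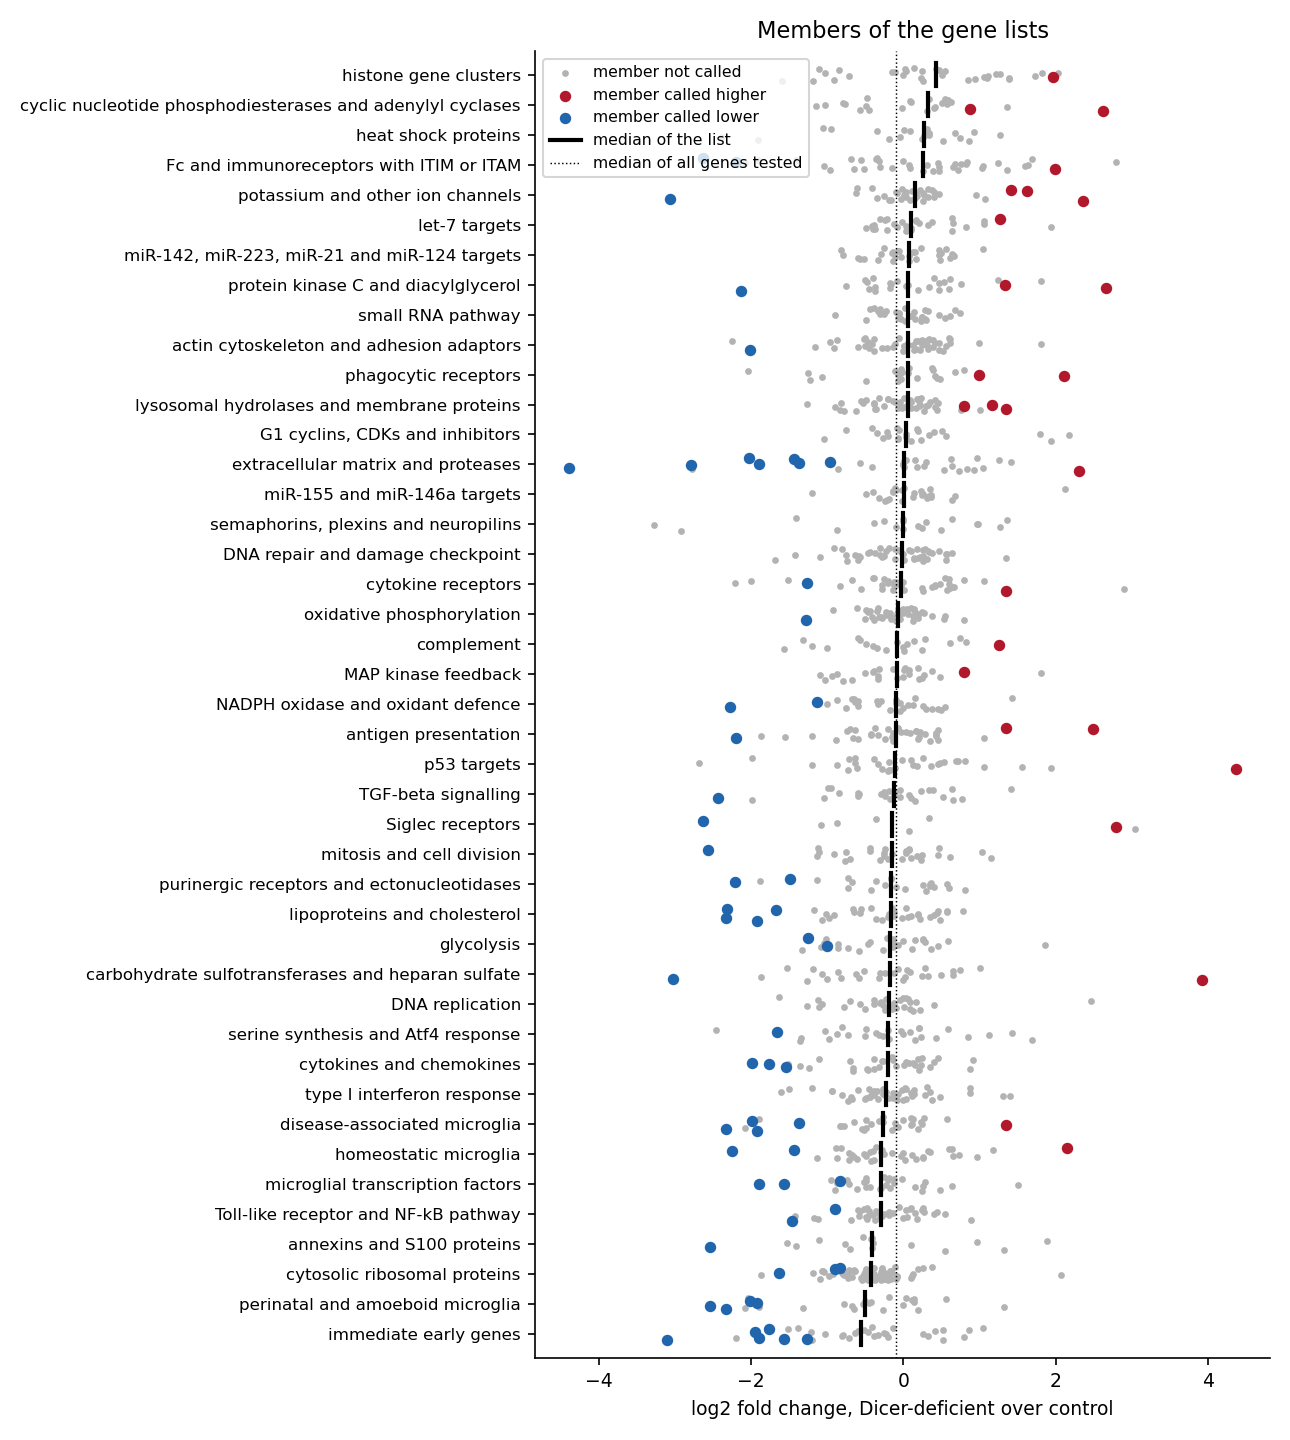
Each point is a gene of a list, placed by its log2 fold change, Dicer-deficient over control. Red points rose, blue points fell, grey points were not called, the black bar is the list median and the dotted line the median of all genes tested (-0.10). Among the 43 pathway lists, which are those drawn, immediate early genes have the lowest median (-0.56) and histone genes the highest (0.43).

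Several lists had no called gene with limma, where 2.18% of all genes tested were called. Of 47 interferon-response genes 0 were called, 2 had an unadjusted p under 0.05 and DESeq2 called 1 lower. Xaf1, an interferon-induced promoter of apoptosis, came closest, at 15.4, 17.6 and 22.8 normalized counts in Dicer-deficient libraries against 52.9, 45.4 and 65.5 in controls (adjusted p = 0.0513). In DNA repair 0 of 48 genes were called (7 with an unadjusted p under 0.05), in DNA replication 0 of 33 (2), in G1 control 0 of 24 (3) and among heat shock proteins 0 of 21 (5), and edgeR and DESeq2 called 0 in each. Among semaphorins, plexins and neuropilins 0 of 19 were called (5), and DESeq2 called 1 lower. Nrp1, a receptor for semaphorins and VEGF, was at 38.6, 44.3 and 354.1 against 920.9, 453.3 and 667.4 (-2.93 ± 0.75, adjusted p = 0.0512). In data simulated on these libraries limma called 20 of 95 genes changed 2-fold (21.1%), 65 of 96 changed 4-fold (67.7%) and 8 of 12364 unchanged ones.

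The microRNAs most often studied in microglia and macrophages were used to look for target genes. Mature sequences are from RefSeq on GRCm38.p6, 5′ to 3′, with the seed, bases 2 to 8, in capitals, and no 2 of the 6 seeds are the same.
mmu-let-7a-5p: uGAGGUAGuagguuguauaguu
mmu-miR-155-5p: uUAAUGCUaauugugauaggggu
mmu-miR-146a-5p: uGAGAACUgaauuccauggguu
mmu-miR-142a-3p: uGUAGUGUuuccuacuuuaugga
mmu-miR-223-3p: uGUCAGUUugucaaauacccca
mmu-miR-21a-5p: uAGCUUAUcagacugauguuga
Mature microRNAs carry no poly(A) tail, so oligo(dT) capture does not measure them. Of 69 tested entries named as microRNA genes, which can only hold reads of their longer transcripts, 0 rose and 2 fell, Mir692-2 by 1.25 ± 0.32 and Mir692-3 by 1.24 ± 0.32 (adjusted p = 0.0484 and 0.0488). Their levels differed in 11b alone, at 30.9 and 31.6, so they may share reads. Both calls were kept only without Dicer-deficient 12 (highest adjusted p 0.214 and 0.217), and edgeR called neither.

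Lists of known targets held few calls, where 0.797% of all genes tested rose and 1.38% fell. Of 29 let-7 targets only Insr, the insulin receptor, was called. It had 108.9, 136.3 and 138.0 normalized counts in Dicer-deficient libraries, against 45.4, 55.5 and 56.3 in controls (1.27 ± 0.25, adjusted p = 0.0129), a call lost without control 7 (adjusted p = 0.0596). The list median was 0.09. Of 27 targets of miR-155 and miR-146a and of 31 targets of miR-142, miR-223, miR-21 and miR-124, limma called 0 (5 in each with an unadjusted p under 0.05), edgeR called 0, and DESeq2 called 1 and 0 higher. Their medians were 0.01 and 0.07, against -0.10 for all genes. Of 32 small-RNA pathway genes 0 were called with any of the tools (2 with an unadjusted p under 0.05), with a median of 0.05.

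Seed matches were counted in the longest annotated 3′ untranslated region of 12248 of the 13423 genes. A match was the 7 bases complementary to the seed, CTACCTC for let-7 and AGCATTA for miR-155, on the transcript strand. Genes with a let-7 match (1282, 10.5%) had a median fold change of -0.03, against -0.09 for the 10966 without, and 1.17% of them rose, against 0.784%. Their untranslated regions were also longer, with a median of 2326.5 bases against 1011. Within the regions up to 655 bases the medians were 0 with a let-7 match (109 genes) and -0.09 without. Between 655 and 1782 bases they were -0.004 and -0.09, and over 1782 bases -0.06 and -0.09. The median was thus higher with a match in each length range. In the same order 3.67%, 1.11% and 0.86% rose with a match, against 0.503%, 1.13% and 0.734% without. With a match 2.75%, 2.51% and 0.86% fell, against 1.13%, 1.43% and 1.65% without. For miR-142a-3p the medians were -0.04 with a match and -0.09 without, and 1.45% rose against 0.779%, while 2.18% fell against 1.34%. For miR-155-5p, miR-146a-5p, miR-223-3p and miR-21a-5p the medians with and without a match differed by at most 0.01 at 2 decimals. Among the 454 genes that matched at least 3 of the 6 seeds 4 rose (0.881%) and 1 fell (0.22%), against 0.669% and 1.26% of the 7624 that matched none, and the medians were -0.06 and -0.09. Genes that matched 1 seed rose in 1.13% and fell in 1.81%, and those that matched 2 in 1.02% and 1.67%. Median region lengths were 4494 bases with at least 3 matches and 707 with none. Within the regions over 1782 bases 0.935% rose and 0.234% fell with at least 3 matches, against 0.609% and 1.67% with none. These are descriptions over genes, which are not replicates. In the separate adult table the medians were 0.10 with a let-7 match and 0.05 without, and 0.11 and 0.05 for miR-155-5p. For let-7 they were 0.11 and 0.09 within the regions over 1782 bases and 0.10 and 0.03 between 655 and 1782 bases. Up to 655 bases they were -0.05 and 0.02, the other way.

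Other cell types were followed through their markers. Summed neuronal markers were at 64.7 to 87.9 normalized counts in Dicer-deficient libraries, against 26.0 to 63.2 in controls. Of 13 tested neuronal genes 1 was called, Snap25, a protein of synaptic vesicle fusion, at 15.4, 15.5 and 6.7 in Dicer-deficient libraries and listed at 0 in every control (adjusted p = 0.00648). The 13 fold changes were split, 7 above 0 and 6 below, with a median of 0.01 (-0.16 with edgeR and TMM scaling). Gad2 was at 0 in all 6. Summed markers of border macrophages were at 1091 to 1309 in Dicer-deficient libraries and 799.4 to 1068 in controls, with Lyve1 and Cd209f at 0 throughout and 0 of 10 called (1 with an unadjusted p under 0.05). Of the 10 fold changes 5 were above 0 and 5 below, with a median of -0.10. Mrc1, with the smallest p, went against the sum, at 2.9, 2.8 and 4.8 in Dicer-deficient libraries and 28.4, 7.6 and 23 in controls (-2.05 ± 0.86, adjusted p = 0.248). Summed monocyte and neutrophil markers were at 1172 to 1359 in Dicer-deficient libraries and 1012 to 1173 in controls, with 0 of 17 called by limma (2 with an unadjusted p under 0.05) and 1 called higher by DESeq2. Astrocyte, oligodendrocyte, endothelial and erythroid markers had 0 called of 7, 7, 9 and 8 with any of the tools (1, 0, 1 and 2 with an unadjusted p under 0.05). Gfap, Aqp4 and Slc1a2 of astrocytes, Mobp, Cldn11 and Pdgfra of oligodendrocytes and their precursors, and Cldn5 and Slco1a4 of endothelial cells were at 0 in all 6. The part of these cells in the results was not tested.

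A few called genes were listed at 0 in a whole group. Since 3 libraries with a value of 1 suffice for testing, such a gene can be tested through the group where it is high alone. That was so for Mrap2 and Fbxo48, and their calls add no support. Besides Snap25, the cyclic nucleotide-gated channel gene Cnga2 (13.5, 9.1 and 9.5 in Dicer-deficient libraries, adjusted p = 0.00177) and the melanocortin receptor accessory gene Mrap2 (6.7, 2.8 and 3.8, adjusted p = 0.0205) were at 0 in every control. Fbxo48, Eno4, Pacsin3, Efna5 and Fut7 were at 0 in every Dicer-deficient library, with control values between 2.8 and 12.6 (adjusted p from 0.00648 to 0.0469). The value of 2.8 was that of Fbxo48 in control 7, where 1 read is worth 0.946. Cnga2 and Fbxo48 kept their calls in all 6 refits. EdgeR with TMM scaling called Snap25 and Cnga2 (adjusted p = 0.0188 and 0.0215) but not Fbxo48 or the others (adjusted p from 0.086 to 0.176). The Mrap2 call was lost without Dicer-deficient 5 or any 1 control (highest adjusted p 0.0989), and Eno4, Pacsin3, Efna5 and Fut7 were lost in each refit (highest 0.0817, 0.102, 0.185 and 0.144).

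The same genes were read in libraries of other mice or conditions. Of the 20 highest genes 18 were tested in the adult table, which holds 3 Dicer-deficient and 4 control steady-state libraries, and 16 rose there (3.15% of all genes tested there), with a median of 2.34. Of the 20 lowest 19 were tested and 16 fell (2% of all genes there), with a median of -1.76. All 37 had the same sign in both tables. Those not called in the adult table were Procr, Pde2a, Lpl, Tfpi and Fam129b. Apoe, by contrast with its decrease in total brain, was at 806 ± 788 in Dicer-deficient libraries and 720 ± 143 in controls of the adult table (SD, n = 3 and 4; -0.48 ± 0.52, adjusted p = 0.688). Whether the 2 tables differ for Apoe was not tested, since they were normalized separately.

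Total brain taken 6 h after 1 mg/kg LPS gave 4 libraries a genotype. There 14 of the 20 highest genes rose (3.75% of all genes) and 15 of the 20 lowest fell (5.12%), with medians of 1.51 and -1.93. Chst2 rose by 5.05 ± 0.31, to 283 ± 56.7 in Dicer-deficient libraries against 7.55 ± 1.47 in controls, and Prkcb fell by 2.46 ± 0.17, to 193 ± 38.7 against 1059 ± 140 (SD, n = 4 each; adjusted p = 2.43e-08 and 1.08e-07). Apoe fell by 2.68 ± 0.22 after LPS (adjusted p = 1.83e-06). Not called after LPS were Dnaic1, Procr, Prkcq, Pde2a, Dock9, Fcrl1, Fosb, Anxa5, Clec2d, Fam129b and Oaf. The hippocampus gave 3 Dicer-deficient and 2 control steady-state libraries, and the number 5 labels a Dicer-deficient library there as well. Of the 20 highest genes 5 rose (0.154% of all genes), namely Dnaic1, Siglecf, Ifi30, Nid2 and Hist1h2bc, and 0 of the 20 lowest were called (0.0162% of all genes), while 19 in each direction had the same sign. Ifi30 rose by 2.37 ± 0.26, to 4176 ± 419 in Dicer-deficient hippocampus against 832 ± 314 in controls (SD, n = 3 and 2; adjusted p = 0.00403). Apoe was not called there, at 8925 ± 1324 in Dicer-deficient hippocampus and 7112 ± 18 in controls (0.32 ± 0.26, adjusted p = 0.73).

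**Figure D5:**
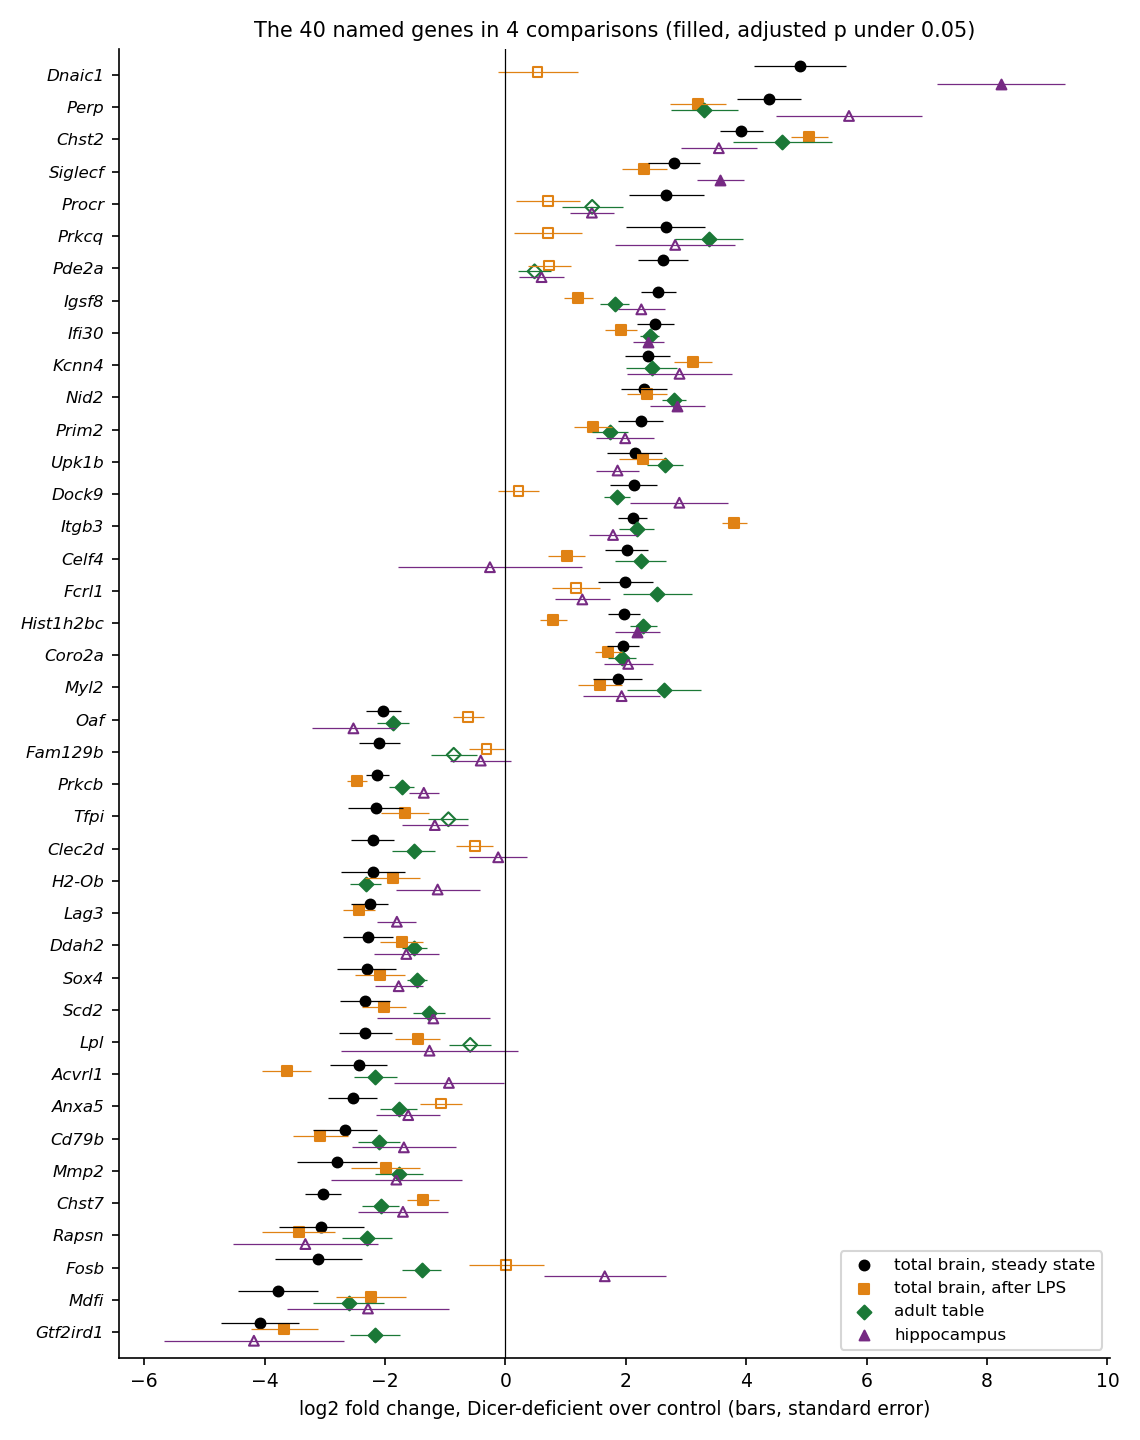
Log2 fold changes with standard errors, Dicer-deficient over control, of the 20 highest and 20 lowest genes in 4 comparisons: total brain at steady state (black circles), total brain after LPS (orange squares), the adult table (green diamonds) and hippocampus (purple triangles). Filled symbols have an adjusted p under 0.05, and all filled symbols of a gene lie on the same side of 0.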

How the data were processed

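The signal values analysed are read counts per gene that the authors scaled by 1 factor per library and deposited in a table of 14 total brain libraries, as the values themselves show. All values were whole multiples of the value of 1 read within 0.0505 units, which gave the totals behind them. The submitters' processing notes list DESeq2, HOMER, SAMtools, bcl2fastq and HISAT 0.1.5, and the build mm9. The counting tool, strand and scaling method are not given in the sources used here. In 3 of the 6 libraries no gene had exactly 1 read. The reason is unknown.

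Groups follow the labels. Genes that reached a value of 1 in 3 or more of the 14 libraries (2 in the hippocampus) were fitted with limma 3.58.1 in R 4.3.3 on log2(value + 1), with a variance trend and 1 mean for each of the 4 groups, so that the libraries after LPS share the spread estimate. The adult and hippocampal tables were fitted alone. Procedures were tested on simulated data. Named are Dicer1, the 20 largest increases and 20 largest decreases among called genes without overlap between groups and of at least median level, called members of 43 pathway and 10 marker lists, up to 2 members with the smallest p of lists with none called, and up to 5 genes a direction at 0 in a whole group. Unnamed gene models were left out, and others are named after seeing their values. The comparison, the genes and the lists were chosen with earlier results of these data known. Alternatives were pseudocounts of 0.1 and 5, other filters, a fit of the 6 libraries, edgeR 4.0.16 quasi-likelihood tests with TMM or RLE scaling and DESeq2 1.42.0 on recovered reads, and leaving out each library. Chosen after seeing the data were subtracting 1 read where no gene had 1, and Xist against Y-linked level as a covariate. Seed matches used GENCODE M21 by gene symbol. A result on 1 microglial marker is not reported here.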

Additional observations from a re-analysis of the deposited data

Results flagged for a closer look

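The Dicer effect differed between steady state and 6 h after LPS in 23 of 13423 genes (0.171%), by a test of the difference in the same limma fit. Of the genes named here 5 were among them. For Gpr183 the fold change was 0.31 ± 0.18 after LPS, against -1.49 ± 0.21 at steady state, a difference of 1.80 ± 0.28 (adjusted p = 0.00688). Dicer-deficient libraries after LPS held 1048 to 1329 normalized counts and controls 826.0 to 1210. Nfkbie, an inhibitor of NF-kB, rose by 0.73 ± 0.19 after LPS and fell by 0.90 ± 0.22 at steady state (adjusted p = 0.0435, lost in each of the 6 refits, highest 0.171), a difference of 1.63 ± 0.29 (adjusted p = 0.0277). Itgb3 rose in both, by 3.80 ± 0.21 after LPS and by 2.11 ± 0.24 at steady state, a difference of 1.69 ± 0.32 (adjusted p = 0.0359). Cxcr2, a neutrophil chemokine receptor, was at 132.3 to 295.3 in Dicer-deficient libraries after LPS and at 5.9 to 13.2 in controls after LPS, a difference between the 2 effects of 5.75 ± 0.73 (adjusted p = 0.00389). At steady state Cxcr2 was not called. Kcnip3, a calcium-binding partner of potassium channels chosen after its values were seen, was at 1.0, 0 and 2.9 in Dicer-deficient libraries and 79.4, 79.1 and 86.1 in controls at steady state (-5.38 ± 0.97, adjusted p = 0.00648). After LPS Kcnip3 was at 1.2 to 36.4 in Dicer-deficient libraries and at 0 to 6.2 in controls, a difference of 8.02 ± 1.29 (adjusted p = 0.00965). In the adult table Kcnip3 was not called, at 0 to 103.6 in Dicer-deficient libraries and 0 to 341.5 in controls (-0.65 ± 1.62, adjusted p = 0.884). Nor was it called in the hippocampus at steady state, at 0 to 2.1 and 0 to 117.9 (-2.90 ± 1.83, adjusted p = 0.62).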

How the results depend on the processing

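No paired analysis was possible because the compared groups share no replicate numbers. The 292 calls, 107 higher and 185 lower, became 187 in a fit of the 6 libraries alone, with 95 higher and 92 lower. DESeq2 called 552, 305 higher and 247 lower. The count of lower genes was 109 in edgeR with TMM scaling and 113 with RLE scaling. With Xist against Y-linked level as a covariate 71 genes were higher and 156 lower. Leaving out 1 library gave 92 to 216 calls, 47 to 73 of them higher and 45 to 143 lower, and the lowest count was without control 9. The cause of these shifts was not tested. Of 118 named called genes, none changed sign under any setting that gave it a value, and DESeq2 gave no adjusted p for 6 (Mmp2, Mrap2, Fbxo48, Efna5, Fut7 and Adcy8). The call was lost for 66 in the fit of the 6 libraries, 65 without control 9, 44 without 11b, 38 with the covariate, 28 in edgeR with TMM scaling and, of those with an adjusted p, 3 in DESeq2. With 3 libraries a group changes of 2-fold were called in 21.1% of simulated cases.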

Other observations

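Of 11 clock genes, chosen after their values were seen, 3 were called, where 2.18% of all genes tested were called. Arntl, which encodes the activator Bmal1, was at 39.5, 57.6 and 57.1 normalized counts in Dicer-deficient libraries, against 19.9, 7.6 and 9.2 in controls (2.08 ± 0.39, adjusted p = 0.00876). Its repressor gene Per2 was at 15.4, 2.8 and 6.7 against 20.8, 34.5 and 31 (-1.90 ± 0.48, adjusted p = 0.0466), and Per1 at 563.0, 298.6 and 613.0 against 227.9, 196.0 and 132.1 (1.37 ± 0.34, adjusted p = 0.0452). Nr1d1, a target of Bmal1, was at 280.5, 15.5 and 132.3 against 35.9, 62.2 and 37.9, with 11b below every control, and was not called. Per3, Cry1, Cry2, Nr1d2, Dbp, Clock and Tef were not called either, with overlapping groups and fold changes between -1.47 for Nr1d2 and -0.01 for Tef. The Arntl call was lost without control 8 or 9 (highest adjusted p 0.0583), Per2 was called only without Dicer-deficient 5 (highest 0.168) and Per1 only without 11b (highest 0.207). The hour at which the mice were killed is not given in the labels used here.

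Further genes named after their values were seen were called in all 6 refits. Gata2, a factor of blood progenitors and mast cells, was at 54.0, 112.4 and 20.9 in Dicer-deficient libraries and 2.8, 1.7 and 5.7 in controls (3.65 ± 0.63, adjusted p = 0.00455). Cd83, an activation marker of antigen-presenting cells, was at 75.2, 155.3 and 63.8 against 266.6, 377.6 and 309.0 (-1.78 ± 0.31, adjusted p = 0.00472). Ppt2, a lysosomal thioesterase, was at 969.9, 1168 and 791.9 against 451.0, 476.9 and 403.2 (1.12 ± 0.18, adjusted p = 0.00249).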
